A study of Mus musculus with 6 samples.

Results

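Solute carrier genes encode the membrane proteins that move amino acids, sugars, metals, nucleosides, vitamins and metabolites into cells and between their compartments. The genes described here are the rows of the deposited count table whose symbol begins with Slc followed by a family number, without Slc2a1, Slc16a3, Slc7a2, Slc7a11 and Slc40a1. They number 175 of the 10551 genes in the table. RNA was sequenced from 6 libraries of C57BL/6J bone marrow-derived macrophages, cells grown out of marrow in culture. Of these, 3 were controls and 3 carried a Dhps knockout specific to macrophages. The Dhps gene product, deoxyhypusine synthase, modifies the translation factor eIF5A, and the title of the series asks how it bears on pro-inflammatory macrophages. All 6 libraries share the strain and the cell type. The labels name the knockout as Dhps_delta_Myel. They give no Cre driver, stimulus, growth factor or age. Whether replicate libraries are separate animals, cultures or preparations is not stated either, so a p-value here reflects the spread between these samples alone, and that spread may be technical.

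Solute carriers do not split ATP. Some let a substrate run down its gradient, others couple it to sodium, protons or an exchanged solute. Macrophages rely on them to take up amino acids and glucose, to move metals out of the phagosome and to empty the lysosome after digestion. Carriers of the Slc25 family sit mainly in the inner mitochondrial membrane and exchange nucleotides, phosphate, citrate, malate and amino acids with the cytosol.

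The libraries held 11648710 to 16224818 counts. Dhps lay at 24.1, 20.9 and 23.4 CPM (normalized counts per 1000000 counts of the library) in the controls and at 13.2, 13.6 and 18.3 CPM in the knockouts, lower in each knockout library. The estimate of -0.59 on the log2 scale missed the threshold (adjusted p = 0.214 in edgeR's quasi-likelihood test), but a block for the replicate number brought it past the threshold (adjusted p = 0.033). The deleted part of the gene is not given in the sources used here, so counts over the whole gene are a partial check of the labels. All 9 macrophage markers examined were measured. Without Lyz2, which fell, their summed level was 5433 to 5909 CPM in the controls and 4935 to 5764 CPM in the knockouts. Of 11 neutrophil markers, Ly6g was not among the genes analysed, and the 10 others summed to 368 to 489 CPM in the controls and 684 to 861 CPM in the knockouts, where 5 of them rose. None of the 6 erythroid and 4 T and NK cell markers was among the genes analysed. In bulk RNA, fewer cells of a type and less RNA per cell cannot be told apart.

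No solute carrier gene passed the threshold between knockout and control. Of 175 genes, 0 were called at an adjusted p under 0.05 by edgeR's quasi-likelihood test, where 0.104% of all genes were called (11 of 10551), 0.0948% as higher and 0.00948% as lower in the knockouts. DESeq2, which called 0.209% of all genes, limma-voom, which called 0.0758%, and edgeR with the replicate number as a block, which called 0.332%, also called 0 solute carrier genes. The smallest adjusted p was 0.309 in edgeR (Slc1a3), 0.203 in DESeq2, 0.280 in limma-voom and 0.099 with the block (Slc27a1). At an unadjusted p under 0.05 there were 6 solute carrier genes, or 3.43%, beside 6.48% of all genes. The 5 with higher values in the knockouts were Slc1a3, Slc2a3, Slc6a4, Slc26a11 and Slc28a2, beside 3.84% of all genes. Of these, Slc1a3 and Slc6a4 exceeded 1 CPM in all 3 knockout libraries but in only 1 control library. They are in the table through the knockouts, which favours the direction seen, so their place in this count supports nothing. The 1 with lower values was Slc27a1, beside 2.64% of all genes.

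The estimates centred near 0 in the same way as those of all genes. The log2 fold change lay above 0 for 81 solute carrier genes and below 0 for 94, or 53.7%, beside 51.3% of all genes. Its median was -0.01, with quartiles at -0.11 and 0.10, and the median of all genes was -0.00, with quartiles at -0.10 and 0.10. Of 73 solute carrier genes taken by the rule for naming or shown as an example, 22 had an estimate of the other sign under at least 1 alternative. Many of the 73 were taken for a small p in these data, which favours a steady sign. Their share therefore does not stand for the solute carrier genes that were not named, some of which also changed sign with a library left out. The groups did not overlap for 6 genes that were higher in every knockout library, or 3.43% of the solute carrier genes, beside 5.73% of all genes. They did not overlap either for 6 genes that were lower in every knockout library, beside 5.45% of all genes. The first group was Slc36a4, Slc6a4, Slc1a3, Slc25a26, Slc2a3 and Slc35g2, and the second was Slc16a10, Slc41a3, Slc44a1, Slc27a1, Slc35f6 and Slc35b2. Of the first group, Slc1a3, Slc6a4 and Slc35g2 exceeded 1 CPM in all 3 knockout libraries but in fewer than 3 control libraries. The table holds only genes above 1 CPM in at least 3 libraries, so these entered it through the knockouts, and their place in this count supports nothing. Such a pattern held for 6 solute carrier genes, or 3.43%, beside 258 of all genes, or 2.45%. The reverse held for 0 solute carrier genes, beside 122 of all genes, or 1.16%.

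Intervals were narrower for genes at higher levels. The 95% interval of the log2 fold change lay within a 1.5-fold change either way for 134 of 175 solute carrier genes, beside 71.9% of all genes, and within a 2-fold change for 158, beside 91.2% of all genes. At 10 CPM or more, this held at 1.5-fold for 114 of 116 solute carrier genes, beside 95.9% of all genes at that level. The exceptions were Slc20a2, a sodium-coupled phosphate transporter (-0.11 to 0.59), and Slc27a1, a fatty acid transport protein (-0.69 to -0.16). Under 10 CPM it held for 20 of 59. The intervals of the remaining low genes reached past 1.5-fold, so a change of that size lay within them.

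**Figure D1:**
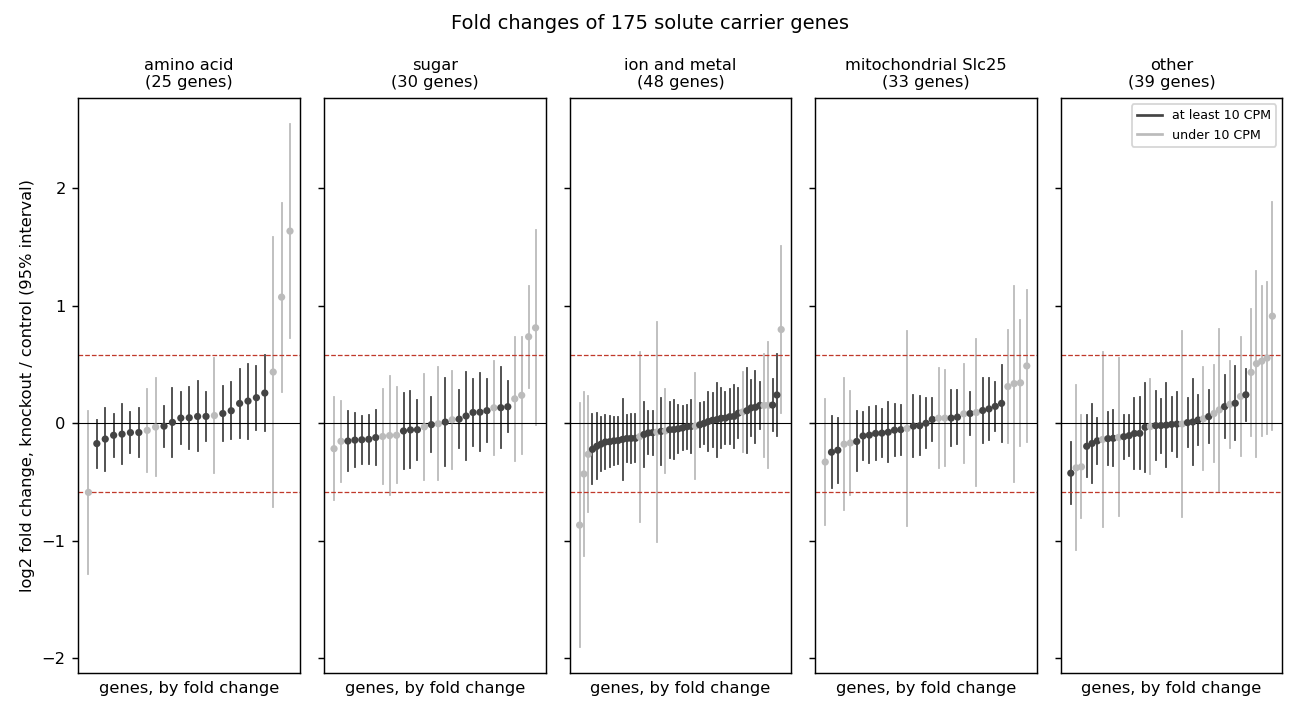
Log2 fold change (knockout relative to control) of each of the 175 solute carrier genes with its 95% interval from edgeR's quasi-likelihood fit, by substrate class and in order of fold change, with dashed lines at a 1.5-fold change and genes under 10 CPM in light grey. At 10 CPM or more the intervals of 114 of 116 genes stay within the lines, and the light grey ones reach further.

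The genes fell into 25 carriers of amino acids and related solutes, 30 of sugars and nucleotide sugars, 48 of ions and metals, 33 of the Slc25 family and 39 others. The last group holds carriers of choline, nucleosides, monocarboxylates, fatty acids and vitamins, as well as Slc4a1ap, Slc7a6os and Slc9a3r1, which are named after carriers but are not transporters. The GENCODE annotation of this assembly lists 366 protein-coding genes that the same rule takes, of which these 175 are the ones analysed here. The share measured was 33 of 47 in the Slc25 family, 30 of 51 for sugars, 48 of 87 for ions and metals, 39 of 114 for the others and 25 of 67 for amino acids. Every annotated member was measured in Slc37 (4 sugar phosphate carriers), Slc41 (3 magnesium carriers), and Slc11, Slc20 and Slc31 with 2 each for iron and manganese, phosphate and copper. Of the sodium- and chloride-coupled Slc6 family, known for its neurotransmitter carriers, 3 of 21 were measured, and of the organic ion carriers of Slc22, known from kidney and liver, 5 of 25.

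**Figure D2:**
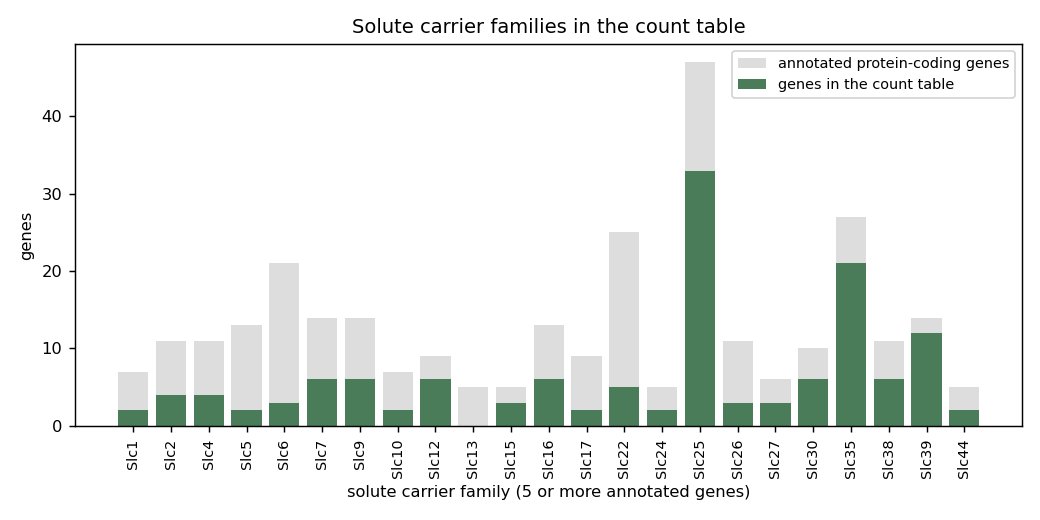
Number of annotated protein-coding genes in each Slc family of 5 or more and number of them in the deposited table, as bars that start at 0. The Slc25 family has 33 of 47 annotated genes in the table, and Slc6 has 3 of 21.

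Levels of different genes were compared as RPKM, which is CPM divided by the deposited gene length in kilobases. The median solute carrier gene lay at 6.01 RPKM and the median of all genes at 6.83 RPKM. A level of 10 RPKM or more was reached by 63 solute carrier genes and 100 RPKM by 7, while 23 lay under 1 RPKM. The 10 most abundant held 44.6% of the summed RPKM of all 175. Slc15a3, a lysosomal carrier of histidine and small peptides, had the highest level with 276 RPKM. It was followed by Slc6a6, the taurine transporter (159 RPKM), Slc2a6, a lysosomal hexose transporter (154 RPKM), and Slc11a1, the phagosomal iron and manganese transporter (127 RPKM). Next came Slc25a5, an ADP/ATP carrier (111 RPKM), Slc48a1, a heme transporter (107 RPKM), and Slc39a1, a zinc importer (104 RPKM). Among the first 19 neighbouring pairs in this order, the values of all 6 libraries stood apart only between Slc15a3 and Slc6a6 and between Slc11a1 and Slc25a5. The other neighbours overlapped and their order is within the spread between libraries.

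**Figure D3:**
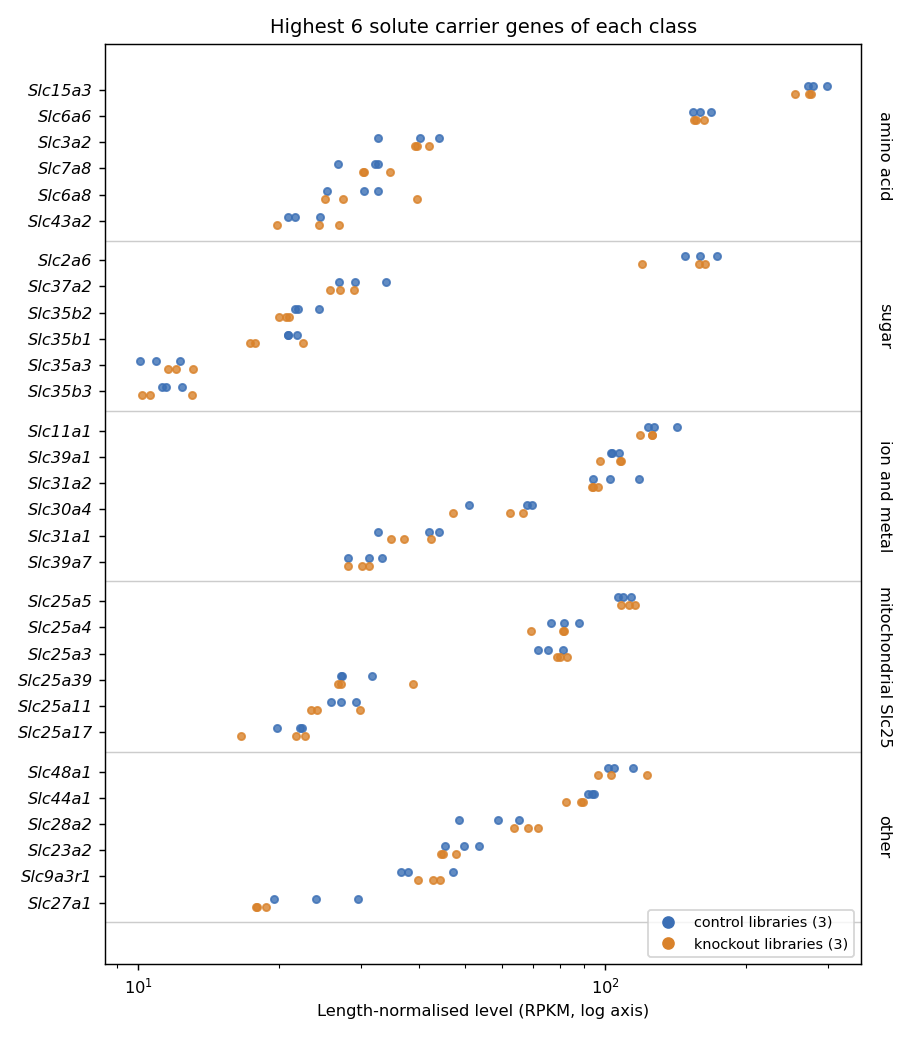
RPKM in each of the 3 control and 3 knockout libraries of the most abundant solute carrier genes of each substrate class, on a log axis. Points of control and knockout libraries lie on each other for most genes, and Slc15a3 stands highest at 276 RPKM.

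The summed RPKM of all 175 genes was 2973 ± 59.7 in the controls and 2898 ± 48.1 in the knockouts (SD, n = 3 each). Carriers of ions and metals held 29.0% of that sum, those of amino acids 22.8%, the Slc25 family 18.5%, the others 18.3% and those of sugars 11.4%. The sum of the ion and metal carriers was 869 ± 19.98 RPKM in the controls and 835 ± 38.8 in the knockouts. For amino acid carriers it was 675 ± 37.1 and 661 ± 8.84 RPKM, and for sugar carriers 344 ± 9.15 and 326 ± 22.6 RPKM. The Slc25 carriers summed to 545 ± 16.4 RPKM in the controls and 544 ± 13.5 RPKM in the knockouts, and the others to 540 ± 17.4 and 532 ± 8.72 RPKM. Each sum was lower in the knockout mean, but single libraries weighed on this. Knockout library 1 was the lowest for sugars (300 RPKM) and for ions and metals (795 RPKM). Control library 1 was the highest for amino acids (716 RPKM). The control and knockout libraries of every class overlapped. One gene carried much of the sum in the amino acid class (Slc15a3, 41.2%) and in the sugar class (Slc2a6, 45.9%), and the leading gene of the other classes held 14.9% to 20.4%.

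**Figure D4:**
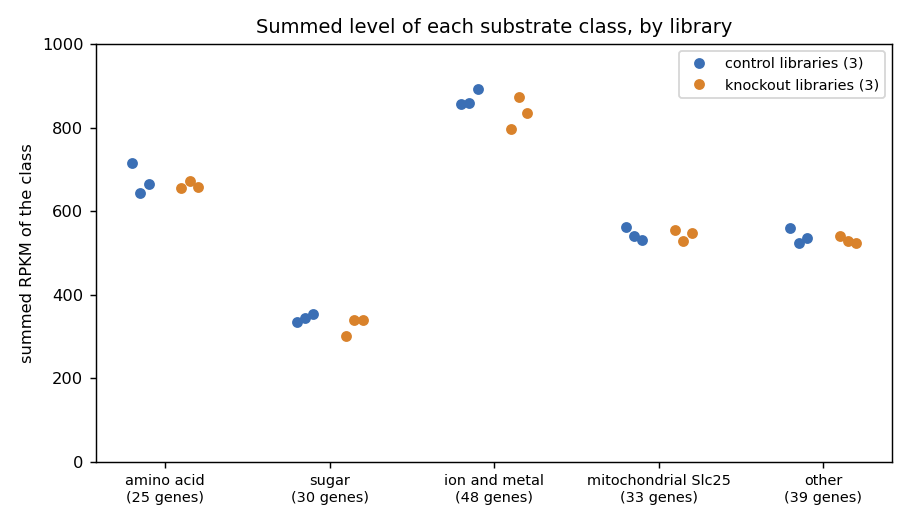
Summed RPKM of each substrate class in each of 3 control and 3 knockout libraries (points). The ion and metal carriers sum to 869 ± 19.98 in the controls and 835 ± 38.8 RPKM in the knockouts (mean ± SD, not drawn). The libraries of the groups overlap in every class.

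Amino acid carriers showed a median estimate of 0.05, with 15 genes above 0 and 10 below. This median was 0.13 without control library 1 and -0.01 without knockout library 1. Their leading genes lay at like levels in both groups. Slc15a3 lay at 298, 272 and 279 RPKM in the controls and 255, 273 and 276 RPKM in the knockouts (estimate -0.08, adjusted p = 0.936). Slc6a6 lay at 168, 154 and 159 RPKM in the controls and 155, 162 and 156 RPKM in the knockouts (-0.02, adjusted p = 0.990). Both genes overlapped between the groups, and the 95% interval of Slc6a6 ran from -0.20 to 0.15. Slc3a2, the heavy chain that carries several light chains to the cell surface, lay at 44.1, 32.7 and 40.0 RPKM in the controls and 39.1, 41.9 and 39.5 RPKM in the knockouts. Its spread came mostly from control library 2, the lowest of the 6.

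Among the genes kept by the rule, the light chains that pair with Slc3a2 differed widely in level. The light chain Slc7a11, which the rule leaves out, lay higher than these, at a mean of 88.0 RPKM. Slc7a8, an exchanger of neutral amino acids, lay at 30.5 ± 3.25 RPKM in the controls and 31.8 ± 2.46 RPKM in the knockouts. Slc7a5, another neutral amino acid exchanger of the same family, averaged 0.65 RPKM. Slc7a5 was detected at 2.86, 3.79 and 1.57 CPM in the controls and 1.58, 1.94 and 2.02 CPM in the knockouts. The groups overlapped, with control library 3 as the lowest of all, and the log2 fold change of -0.59 had an interval of -1.28 to 0.11 (adjusted p = 0.838). Of 8 listed heavy and light chains, without Slc7a11, 5 were measured. Among them 0 passed the threshold in edgeR, DESeq2 or limma-voom, with 0 at an unadjusted p under 0.05 in edgeR.

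Hypusine is made from the polyamine spermidine, and polyamines come from arginine by way of ornithine. Of 17 carriers listed for arginine, ornithine and polyamines, 6 were measured. Among them 0 passed the threshold in edgeR, DESeq2 or limma-voom, with 0 at an unadjusted p under 0.05 in edgeR. The list does not hold the arginine importer Slc7a2, which the rule leaves out and which had a mean of 358 RPKM. Slc7a1, the broadly expressed importer of cationic amino acids, lay at 2.73, 2.47 and 2.34 RPKM in the controls and 2.12, 2.53 and 2.24 RPKM in the knockouts (estimate -0.13, adjusted p = 0.920). Slc7a7, which exports cationic amino acids with Slc3a2, had an estimate of 0.01 (interval -0.29 to 0.30), and the like exchanger Slc7a6 one of -0.03 (interval -0.45 to 0.39). The estimate was -0.06 for Slc38a9, the lysosomal arginine sensor and carrier (interval -0.41 to 0.29). Slc25a15, the mitochondrial ornithine carrier, lay at 3.71, 3.34 and 4.0 CPM in the controls and 4.81, 5.19 and 3.74 CPM in the knockouts, so that knockout library 3 fell among the controls (0.31, adjusted p = 0.893). The median over the 6 was -0.01. The signs for Slc3a2, Slc7a6, Slc7a7 and Slc38a9 changed when single libraries were left out, and that for Slc7a7 also with limma-voom.

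Slc1a3, a sodium-coupled glutamate transporter best known from glia, had the smallest p of the 175 genes. It lay at 1.14, 0.643 and 0.261 CPM in the controls and 1.72, 2.94 and 1.96 CPM in the knockouts. The knockout libraries held 25 to 38 counts and the controls 3 to 16. The groups did not overlap, but only 1 control library exceeded 1 CPM, so the gene is in the table through its knockout libraries and that filter favours the direction seen. The log2 fold change was 1.64 (SE 0.43, 95% interval 0.73 to 2.55), and the adjusted p in edgeR's quasi-likelihood test was 0.309. Without control library 1 it was 2.19, the highest value with a library left out, with an adjusted p of 0.072, and the lowest was 1.30. Slc1a3 spans bases 8634124 to 8710807 of chromosome 15 in mm10, over 10 exons.

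Slc6a4, the serotonin transporter, which platelets and mast cells also carry, lay at 1.36, 0.836 and 0.870 CPM in the controls and 1.51, 1.78 and 3.13 CPM in the knockouts. The groups did not overlap, but control library 1 and knockout library 1 stood close together and knockout library 3 was the highest. The log2 fold change was 1.07 (SE 0.38, interval 0.27 to 1.88, adjusted p = 0.588). It ranged from 0.68 to 1.34 with a library left out. Like Slc1a3, it exceeded 1 CPM in 1 control library and in all 3 knockouts, and is in the table through the latter. Slc6a4 lies at bases 76998597 to 77032343 of chromosome 11.

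Summed markers of some cell types other than macrophages differed between the groups beside these low genes. The 3 measured of 5 markers of mast cells and basophils summed to 1.57 to 2.78 CPM in the controls and 3.78 to 6.38 CPM in the knockouts. Among them Mcpt8 (2.00) and Prss34 (1.70) had estimates above 0 and Cpa3 one of -0.11, and 0 passed the threshold. Fcer1a and Ms4a2, which define mast cells and basophils, were not among the genes analysed. Of 7 stromal markers 3 were measured, summing to 3.34 to 5.48 CPM in the controls and 7.43 to 13.1 CPM in the knockouts, and 2 of them, Col1a2 and Sparc, rose. The 5 measured of 6 megakaryocyte and platelet markers, most of whose sum is Pf4, gave 1421 to 1713 CPM in the controls and 1195 to 1327 CPM in the knockouts. Without Pf4 the other 4 summed to 16.3 to 22.2 CPM in the controls and 27.7 to 36.9 CPM in the knockouts, all with estimates above 0 and 0 past the threshold. Mcpt8, Prss34, Col1a2, Sparc, Tubb1 and Gp9 lay under 1 CPM in every control library and above it in every knockout library. These markers are in the table through the knockouts, so that filter favours the rise in their values and in the sums that hold them. The part of cells of these types, and of neutrophils, in the values of Slc1a3, Slc6a4 and Slc2a3 was not tested.

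Other amino acid carriers had smaller estimates. Slc36a4, a proton-coupled carrier, lay at 15.5, 15.8 and 14.3 CPM in the controls and 19.8, 16.1 and 17.2 CPM in the knockouts, higher in each of them (0.22, adjusted p = 0.856). Slc16a10, an aromatic amino acid carrier, lay at 116, 111 and 114 CPM in the controls and 100, 108 and 111 CPM in the knockouts, lower in each of them by a small margin (-0.10, interval -0.29 to 0.08, adjusted p = 0.909). Slc1a5, a glutamine carrier, had an estimate of 0.26 (adjusted p = 0.861) and Slc38a10 one of -0.17 (adjusted p = 0.838), and both overlapped between the groups. The carriers Slc43a2, for neutral amino acids, and Slc6a8, for creatine, had mean levels of 23.1 and 30.1 RPKM.

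Sugar carriers showed a median estimate of -0.01, with 14 genes above 0 and 16 below. Slc2a6 lay at 148, 160 and 173 RPKM in the controls and 120, 159 and 163 RPKM in the knockouts. Knockout library 1 was the lowest and the others fell within the control range (estimate -0.12, adjusted p = 0.911). Slc37a2, which exchanges glucose-6-phosphate for phosphate and is abundant in macrophages, lay at 30.0 ± 3.56 RPKM in the controls and 27.3 ± 1.63 RPKM in the knockouts (-0.14, adjusted p = 0.894).

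Slc2a3, a high-affinity glucose transporter, was the second solute carrier gene by p. It lay at 4.43, 3.66 and 3.31 CPM in the controls and 6.26, 6.90 and 5.95 CPM in the knockouts. The gap between the groups was wider than the range within either. The log2 fold change was 0.74 (SE 0.21, interval 0.30 to 1.17) with an adjusted p of 0.371 in edgeR's quasi-likelihood test, and it ranged from 0.65 to 0.86 with a library left out. Slc2a3 spans bases 122727809 to 122742745 of chromosome 6, over 10 exons. Its level of 1.28 RPKM was far below that of Slc2a6, the leading hexose carrier.

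Of the nucleotide sugar family Slc35, which supplies the Golgi and endoplasmic reticulum, 21 of 27 annotated genes were measured. Slc35b2, which brings the sulphate donor PAPS into the Golgi, lay at 52.3, 46.4 and 47.0 CPM in the controls and 44.4, 42.8 and 45.0 CPM in the knockouts, lower in each of them (-0.14, interval -0.34 to 0.06, adjusted p = 0.876). The orphan Slc35f6 was also lower in each knockout library (-0.15, adjusted p = 0.861). Slc35b1, a carrier of the endoplasmic reticulum, had an estimate of -0.15 and Slc35a3, a carrier of UDP-N-acetylglucosamine, one of 0.14, with adjusted p-values of 0.908 and 0.894. Slc35g2 lay at 0.500, 0.964 and 0.957 CPM in the controls and 1.17, 1.63 and 1.47 CPM in the knockouts (0.81, adjusted p = 0.793). Slc35g2 exceeded 1 CPM in the knockouts only, so its direction follows from its presence in the table and supports nothing.

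Carriers of ions and metals showed a median estimate of -0.04, with 18 genes above 0 and 30 below. Slc11a1 lay at 142, 124 and 127 RPKM in the controls and 126, 126 and 119 RPKM in the knockouts (-0.08, interval -0.26 to 0.10). The groups overlapped, with control library 1 as the highest. Slc31a2, a copper transporter of endosomes, lay at 94.3, 103 and 118 RPKM in the controls and 94.3, 93.7 and 96.3 RPKM in the knockouts (-0.15, adjusted p = 0.869). Its knockout values were close together at the low end of the control range. Slc31a1, the copper importer of the cell surface, lay at 39.5 ± 6.09 RPKM in the controls and 38.1 ± 3.86 RPKM in the knockouts.

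Of 24 listed zinc transporters 18 were measured, 7 above 0 and 11 below, and 0 passed the threshold in edgeR, DESeq2 or limma-voom, with 0 at an unadjusted p under 0.05 in edgeR. Their median was -0.03. Slc39a1 lay at 103, 103 and 107 RPKM in the controls and 97.4, 108 and 108 RPKM in the knockouts (-0.00, interval -0.18 to 0.18). Slc30a4, a zinc carrier of vesicles, lay at 51.0, 69.7 and 68.1 RPKM in the controls and 47.3, 66.8 and 62.7 RPKM in the knockouts. Library 1 was the lowest in both groups, and the groups overlapped (-0.10, adjusted p = 0.960). Slc39a7, which releases zinc from the endoplasmic reticulum, lay at 30.4 RPKM, but 83.5% of its exon bases are shared with an annotated readthrough gene on the same strand, so its reads could be split between them.

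Slc30a1, the zinc exporter of the cell surface, is a known target of the metal-responsive factor MTF1, and its promoter is shown as an example of the sequence in front of these genes. It lay at 110, 101 and 98.4 CPM in the controls and 83.6, 97.8 and 102 CPM in the knockouts, which overlapped (-0.13, interval -0.34 to 0.08). The 250 bases before its start, on the plus strand at chr1:191906531-191906780, come from RefSeq (GRCm38.p6), and capitals mark the match to the core of a metal response element.
Slc30a1: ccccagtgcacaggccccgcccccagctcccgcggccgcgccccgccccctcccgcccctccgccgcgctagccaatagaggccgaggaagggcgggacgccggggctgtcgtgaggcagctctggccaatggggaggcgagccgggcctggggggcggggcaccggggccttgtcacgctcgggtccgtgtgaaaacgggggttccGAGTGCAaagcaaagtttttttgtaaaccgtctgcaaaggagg
The core was searched as TGCACNC and TGCGCNC on both strands, in 300 bases from 250 before to 50 after each start. The match shown is the reverse complement of the first form. The window of Slc30a1 held 2 matches, and the other lies in the 50 bases after the start, which are not printed. The core was present in 42.1% of 19 windows of zinc transporters and 38.0% of 179 windows of the 134 solute carrier genes that had one. Over 32851 windows of 27025 RefSeq genes the share was 25.7%. Those genes reach beyond the count table, and a gene with several starts has several windows, so the shares are not of like sets. By class the core was present in 12% of 25 windows of amino acid carriers and 52.3% of 44 windows of the other class. A match is a description of the letters and not a binding site.

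Other ion carriers with small p were spread over both directions. Slc26a11, an anion carrier, lay at 1.21, 1.09 and 2.43 CPM in the controls and 2.89, 2.87 and 2.33 CPM in the knockouts. Control library 3 lay above knockout library 3, so the groups overlapped, and the estimate was 0.80 (interval 0.09 to 1.51, adjusted p = 0.710). Slc41a3, a magnesium carrier, was lower in each knockout library, at 14.3, 11.9 and 13.2 CPM against 10.5, 11.9 and 11.5 CPM, though control library 2 and knockout library 2 agree to 3 digits (-0.22, adjusted p = 0.866). Slc20a2 had an estimate of 0.24 (adjusted p = 0.876). The sodium and calcium exchangers Slc8a1 at the cell surface and Slc8b1 in mitochondria had estimates of 0.16 and -0.18. Slc24a5 ranged from 0.643 to 4.0 CPM within the control libraries alone (-0.87, adjusted p = 0.840), and 47.2% of its exon bases overlap Myef2 on the opposite strand.

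The Slc25 carriers showed a median estimate of 0.00, with 17 genes above 0, 16 below and 0 at an unadjusted p under 0.05. Slc25a5 lay at 113, 109 and 106 RPKM in the controls and 116, 108 and 112 RPKM in the knockouts (0.03, interval -0.15 to 0.21, adjusted p = 0.986). Slc25a3, the phosphate carrier, lay at 81.2, 71.8 and 75.5 RPKM in the controls and 82.9, 79.0 and 80.1 RPKM in the knockouts (0.08, interval -0.10 to 0.27). Slc25a4, the other abundant ADP/ATP carrier, lay at 82.0 ± 5.58 and 77.4 ± 6.94 RPKM. All 3 genes overlapped between the groups. A pseudogene of Slc25a5 is annotated, and reads could be shared with it.

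Of 10 listed carriers of adenine nucleotides and phosphate and uncoupling proteins, 7 were measured with a median of -0.04. Of 8 for the malate-aspartate shuttle, citrate and dicarboxylates, 6 were measured, 1 above 0 and 5 below, with a median of -0.09. In both lists 0 passed the threshold in edgeR, DESeq2 or limma-voom, with 0 at an unadjusted p under 0.05 in edgeR. Slc25a10, the dicarboxylate carrier, lay at 26.7, 30.3 and 22.7 CPM in the controls and 25.7, 22.2 and 20.4 CPM in the knockouts, with knockout library 1 within the control range (-0.23, adjusted p = 0.840). Slc25a13, an aspartate and glutamate carrier, had an estimate of -0.15 (adjusted p = 0.902). Slc25a26, which imports S-adenosylmethionine, the source of the aminopropyl groups of spermidine, lay at 2.57, 2.51 and 2.78 CPM in the controls and 3.85, 3.18 and 2.94 CPM in the knockouts. Each knockout library was higher, and the interval of the estimate of 0.34 ran from -0.19 to 0.88. Slc25a39, linked to glutathione import, was higher in knockout library 1 than in the other 5 (64.8 against 44.7 to 52.7 CPM).

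The remaining carriers showed a median estimate of -0.01, with 17 genes above 0 and 22 below. Slc27a1, also known as FATP1, was the solute carrier gene of at least 10 CPM with the smallest p. It lay at 82.8, 67.2 and 54.6 CPM in the controls and 52.5, 50.1 and 50.1 CPM in the knockouts. The knockout libraries were nearly equal and lay below all controls, whereas the controls spread from just above them to well above. The log2 fold change was -0.42 (SE 0.12, interval -0.69 to -0.16) and the adjusted p was 0.414. It was 0.099 with the replicate number as a block, and the estimate ranged from -0.56 without control library 3 to -0.26 without control library 1. Slc27a1 spans bases 71568927 to 71586708 of chromosome 8, over 14 exons.

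**Figure D5:**
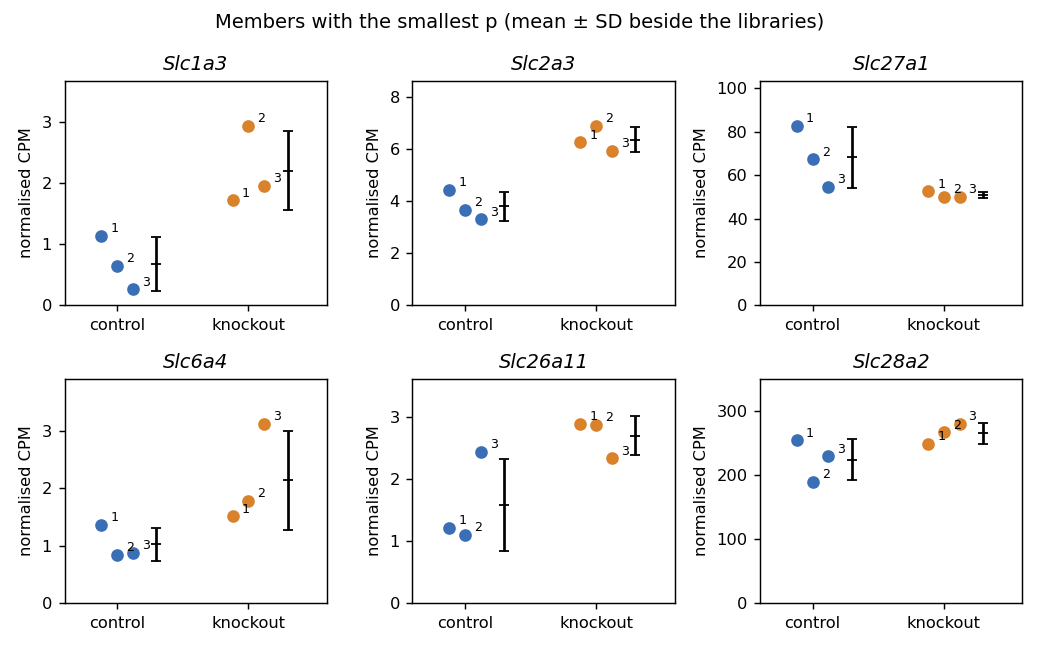
CPM in each library of the 6 solute carrier genes with an unadjusted p under 0.05, with points for 3 control and 3 knockout libraries. Slc27a1 lies at 54.6 to 82.8 CPM in the controls and 50.1 to 52.5 CPM in the knockouts, and the groups overlap for Slc26a11 and Slc28a2.

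Slc28a2, a sodium-coupled carrier of purine nucleosides, lay at 255, 189 and 230 CPM in the controls and 249, 267 and 281 CPM in the knockouts. Control library 1 lay above knockout library 1, and control library 2 was the lowest (0.24, SE 0.10, interval 0.02 to 0.46, adjusted p = 0.723). Slc48a1 lay at 105, 115 and 102 RPKM in the controls and 123, 103 and 96.3 RPKM in the knockouts, which overlapped (0.01). Slc44a1, a choline transporter, lay at 92.0, 93.5 and 94.7 RPKM in the controls and 82.2, 88.6 and 89.7 RPKM in the knockouts. It was lower in each knockout library by a small amount (-0.10, interval -0.28 to 0.07, adjusted p = 0.903). Slc23a2, an ascorbate transporter, lay at 49.7 ± 4.14 and 45.9 ± 1.86 RPKM. Among carriers with the smallest p in this class were also Slc52a2 for riboflavin (-0.37), Slc33a1 for acetyl-CoA (-0.20), Slc19a2 for thiamine (0.53), Slc5a6 for biotin and pantothenate (0.56) and Slc16a9 (0.91). Their adjusted p-values were 0.815 to 0.868.

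A list of lysosomal and endosomal carriers crossed the substrate classes. It did not hold every such carrier, and Slc2a6 is absent from it. Of its 16 genes 15 were in the table, 7 above 0 and 8 below, with a median of -0.01. In edgeR, DESeq2 and limma-voom 0 passed the threshold. Only Slc26a11 had an unadjusted p under 0.05 in edgeR, or 6.67%, beside 6.48% of all genes. For 14 of the 15 the 95% interval lay within a 1.5-fold change either way.

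Spread within groups differed between carriers. Among the 116 genes of at least 10 CPM, the coefficient of variation within groups was lowest for Slc25a5 (3.33%), Slc44a1 (3.35%), Slc6a6 (3.70%), Slc16a10 (3.89%) and Slc39a14 (4.16%). It was highest for Slc29a3 (21.9%), Slc46a3 (21.3%), Slc35a4 (20.3%), Slc6a8 (20.2%) and Slc16a7 (19.8%). Slc6a8 lay at 130, 121 and 101 CPM in the controls and 157, 109 and 99.9 CPM in the knockouts. Slc29a3, a nucleoside carrier of lysosomes, lay at 22.3, 15.6 and 21.0 CPM in the controls and 25, 16.4 and 16.7 CPM in the knockouts. Knockout library 1 was the highest for both, as it was for Slc46a3 and Slc35a4. Yet it was also the lowest of the 6 for 39 of the 116 genes, or 33.6%, where it was the lowest for 21.4% of all genes at that level. Control library 1 was the highest for 31 of them, or 26.7%, beside 22.7% of all genes at that level. The part of these libraries in the class medians was measured by leaving each out, and the ion and metal median was 0.01 without knockout library 1.

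Transport proteins outside the Slc symbols and partner proteins of carriers were also examined. Of 32 listed superfamily members without such a symbol 21 were measured, 6 above 0 and 15 below, with a median of -0.09. In edgeR 2 had an unadjusted p under 0.05, or 9.52%, beside 6.48% of all genes. These were Ucp2, a mitochondrial carrier (0.21, adjusted p = 0.674), and Mpc2, a subunit of the mitochondrial pyruvate carrier (-0.23, adjusted p = 0.728). Of 16 partner proteins and chaperones 14 were measured, with a median of 0.05. Among them is Slc9a3r1, which is also counted in the 175 genes. Emb, a partner of monocarboxylate carriers, had an estimate of 0.34 (adjusted p = 0.366). In both lists 0 passed the threshold in edgeR, DESeq2 or limma-voom. Of 27 P-type and V-type ATPase subunits 25 were measured, with a median of 0.02 and 0 past the threshold in these tests. Atp2a3, a calcium pump, was the only gene of that list with an unadjusted p under 0.05 (0.54, adjusted p = 0.366), or 4%, beside 6.48% of all genes. Of 31 ABC transporters 28 were measured with a median of -0.02, and 0 passed in edgeR or limma-voom, with 4 at an unadjusted p under 0.05 in edgeR, or 14.3%, beside 6.48% of all genes. Of these 4, Abcb1b (-0.25), Abcc3 (-0.22) and Abcb6 (-0.40) had lower and Abca13 higher values in the knockouts. DESeq2, and edgeR with the replicate number as a block, called 1, Abca13, whose log2 fold change was 0.93 (adjusted p = 0.118 in edgeR).

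The 5 solute carrier genes that the rule leaves out did not pass the threshold either. Slc7a2, an arginine importer, lay at 344 ± 33.0 RPKM in the controls and 371 ± 32.2 RPKM in the knockouts, above every gene described here, and the log2 fold changes of Slc7a2, Slc2a1, Slc7a11, Slc16a3 and Slc40a1 were 0.11, 0.10, 0.13, -0.11 and -0.10, with adjusted p-values of 0.902 to 0.940.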

How the data were processed

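RNA of 6 libraries of mouse bone marrow-derived macrophages (3 control, 3 Dhps knockout) was read on an Ion Proton sequencer, according to the labels. The authors deposited 1 table of raw, whole-number counts and a gene length in bases, which is another kind of deposited value. Per the submitters' processing notes, the build was mm10 and the tools included featureCounts, Subread 1.5.0, edgeR and STAR 2.4.2a. Their roles, the annotation, and the use of strand and of multi-mapping reads are not given in the sources used here.

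Every gene in the table exceeded 1 CPM in at least 3 libraries. Counts were scaled by TMM and tested in R 4.3.3 with edgeR 4.0.16 (quasi-likelihood, two-sided), a model of genotype alone, filterByExpr (minimum count 10, which removed 0 genes) and Benjamini-Hochberg adjustment over all 10551 genes. A gene was called at an adjusted p under 0.05. The biological coefficient of variation was 10.7%. The standard error of a log2 fold change (knockout relative to control) is the change over the root of its F statistic. The test was first tested on simulated data. Alternatives were other or no size factors, no or a stricter filter, an adjusted p under 0.1, the replicate block, each library left out, DESeq2 1.42.0 and limma-voom (limma 3.58.1). Promoters came from RefSeq and exon overlaps from GENCODE, both of the mm10 assembly. Of 175 genes, 48 share exon bases with another annotated gene, 17 of them over 10%.

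The members, substrate classes and lists were chosen with earlier results of these data known. Genes were named by rule: in each class up to 6 with the highest RPKM and up to 4 each way with the smallest p, the arginine and polyamine list, the 5 least and 5 most variable at 10 CPM or more, up to 2 per other list, and the 5 left out. Slc30a1, as an example, and Abcc3, Abcb6 and the marker genes were named after their values were seen.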

Additional observations from a re-analysis of the deposited data

How the results depend on the processing

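No alternative called a solute carrier gene: the count was 0 under each, and the smallest adjusted p over all of them was 0.072, for Slc1a3 without control replicate 1. Over all genes the count of 11 became 35 with the replicate block and 22 with DESeq2, and 4 to 19 with 1 library left out (19 without control replicate 1, 4 without control replicate 2, 7 without control replicate 3). The difference in Dhps passed the threshold with the replicate block (log2 fold change -0.61, adjusted p = 0.033). Labels number the libraries 1 to 3 in both groups. Same-numbered libraries correlated at 0.139, 0.019 and 0.148 in their deviations from the group means, and the other combinations at -0.181 to 0.055. The highest values were thus of same-numbered libraries, but control library 2 correlated slightly better with knockout library 1 (0.030). These values do not settle whether the numbers are pairs. The main fit has genotype alone, and the replicate number entered as a block in an alternative. With no size factors the median log2 fold change was 0.011 for the solute carrier genes, 0.016 for the sugar carriers and 0.02 for all genes. With 1 library left out, the amino acid median ran from -0.013 without knockout replicate 1 to 0.126 without control replicate 1, the sugar median ran from -0.022 to 0.044 and was 0.015 without knockout replicate 1, and the ion and metal median ran from -0.082 to 0.013, highest without knockout replicate 1. The fit with no filter equals the main fit, because the default filter removed 0 genes, so its values could not change sign. Many of the named genes were also taken for a small p in these data, which favours a steady sign. Of 947 values of 73 genes under 13 alternatives, 903 kept their sign and 0 were called. The 44 others belonged to 22 genes, whose log2 fold changes with 1 library left out ran over these ranges: Slc6a6 -0.050 to 0.011, Slc3a2 -0.064 to 0.145, Slc7a8 -0.024 to 0.112, Slc6a8 -0.162 to 0.190, Slc43a2 -0.013 to 0.200, Slc7a7 -0.137 to 0.090, Slc7a6 -0.139 to 0.093, Slc38a9 -0.180 to 0.043, Slc39a1 -0.025 to 0.051, Slc30a4 -0.226 to 0.045, Slc31a1 -0.176 to 0.029, Slc39a7 -0.108 to 0.010, Slc25a39 -0.083 to 0.200, Slc25a17 -0.163 to 0.058, Slc48a1 -0.097 to 0.082, Slc9a3r1 -0.010 to 0.182, Slc46a3 -0.229 to 0.197, Slc16a7 -0.187 to 0.146, Slc29a3 -0.237 to 0.091, Slc2a6 -0.199 to 0.011, Slc35b3 -0.171 to 0.019 and Slc35a4 -0.134 to 0.223. With all libraries the sign also turned for Slc39a1 with RLE size factors (0.0011), without size factors (0.022) and with DESeq2 (0.0012), for Slc29a3 without size factors (0.013), for Slc46a3 with the replicate block (-0.0068) and limma-voom (-0.035), and with limma-voom for Slc7a7 (-0.0070) and Slc48a1 (-0.00032). The cause of these shifts was not tested. The stricter filter left 10300 genes, 170 of them solute carriers. Intervals were widest under 10 CPM, where most reached past a 1.5-fold change.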
